A study of Homo sapiens with 46 samples.

Results

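The comparison described here is the step from day 3 to day 6 of neural conversion in control cells. Its members are 8 of the 46 libraries of the series, chosen by their titles: 2 replicates at day 6 (ND6) and 2 at day 3 (ND3), each sequenced once as mRNA and once as ribosome footprints. The cells are H1, a long-established line of human embryonic stem cells kept off feeders, infected with a lentivirus carrying a control short hairpin RNA (shControl) and then kept in a medium that the labels call NIM. Every library of the comparison carries that hairpin, so none comes from unmanipulated cells. The same days in cells with a hairpin against KBTBD8 (shKBTBD8), which hands substrates to the ubiquitin ligase CUL3, were used for comparison, as were the earlier control stages, undifferentiated cells (hES) and day 1 (ND1). Whether the replicates are separate cultures is not in the labels. A p-value here therefore reflects the spread between libraries alone, which may be technical.

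During neural conversion, pluripotent cells shut down the transcription factor network that holds them in the stem cell state, and neural plate factors such as PAX6 and SOX1 come on. Ribosome footprints are the stretches of mRNA that a translating ribosome shields from RNase. They follow the product of how much mRNA is present and how densely it is loaded, so the ratio of footprints to mRNA, called translational efficiency (TE), separates changes in loading from changes in mRNA. In bulk libraries, fewer cells that use a gene and less RNA per cell cannot be told apart.

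The deposited rows carry transcript identifiers and no gene names. A search of the gene tables at hand matched 0 identifiers. The levels of PAX6, SOX1, KBTBD8 and the other markers of these cells were therefore not analysed here, and the neural label could not be checked against markers. Transcripts are described by direction, size, length value, abundance and course over the stages, and 4 are named by identifier. Neighbouring rows whose counts ran in proportion across the 46 libraries were taken to hold the same reads, though the reads themselves were not compared. A transcript here is a group of such rows, with its highest row standing for it, which gave 17680 transcripts. Of these, 7396 held 1 row. Reads may still be shared between near-identical copies of a gene, or with antisense partners. On this basis the mRNA libraries of control ND6 and ND3 held 20.9 to 26.3 M counts and the footprint libraries 2.44 to 5.02 M. Transcripts without a count made up at most 0.311% of an mRNA library and 9.73% of a footprint library. Levels were taken as log2 CPM, where CPM is counts scaled to a library of fixed size. Pearson's r between replicates was 0.992 at ND6 and 0.989 at ND3 in mRNA, and 0.912 at ND6 and 0.914 at ND3 in footprints.

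The first question was how the mRNA changed between these days. At ND6, 1909 transcripts were higher and 1779 were lower than at ND3, of 17659 tested (edgeR quasi-likelihood test, Benjamini-Hochberg adjusted p under 0.05, n = 2 per day). That is 20.9% of the transcripts tested, 10.8% higher and 10.1% lower. The median rise was 0.93 and the median fall was -0.78 on the log2 scale. Most changes were modest. Of the rises, 827 reached 2-fold and 215 reached 4-fold, and of the falls 588 and 162 did. The largest rise was 8.09 and the largest fall -8.14 (log2). In all of these 3688 transcripts the ND6 libraries did not overlap the ND3 libraries, which was also the case for 31.9% of all tested transcripts upward and 31.8% downward. The number called depended on single libraries: it was 1517 without ND6 replicate 1, 2143 without ND6 replicate 2 and 1858 without ND3 replicate 1.

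The earlier control steps gave more calls. From hES to ND1, 2364 transcripts were higher at ND1 (13.4%) and 2396 lower (13.6%), together 27.0% of those tested. From ND1 to ND3, 3147 were higher at ND3 (17.8%) and 2974 lower (16.8%), together 34.7%, in the same model. These steps share libraries with their neighbours, and the difference between the counts was not tested.

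A small part of the changes crossed a level of 1 CPM, upward or downward. In 127 rises both ND3 libraries lay below 1 CPM and both ND6 libraries above it, with a median rise of 2.18 (log2) and a median ND6 level of 2.45 CPM. Of these, 60 were also below 1 CPM in both hES libraries, while 47 were above it in both. In 134 falls both ND3 libraries lay above 1 CPM and both ND6 libraries below it. Their median fall was -2.11 (log2) and their median ND3 level 1.98 CPM. Of these, 89 had been above 1 CPM in both hES libraries and 33 below it in both. Both classes thus mix transcripts above 1 CPM at hES with transcripts below it, and the median level of the higher day was low in both. How many of all tested transcripts crossed this level, called or not, was not counted, so these counts are a description.

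Over the whole control course, 1464 of the 1909 rises (76.7%) stood higher in both ND6 libraries than in any of the 6 earlier control mRNA libraries. Likewise 1362 of the 1779 falls (76.6%) stood lower at ND6 than in any earlier library. Over all tested transcripts the shares were 19.7% upward and 19.5% downward. Among those whose ND6 libraries merely lay beyond both ND3 libraries, called or not, they were 61.7% and 61.4%. The lists were chosen for their ND6 and ND3 values, which fixes part of this. A course that moved the same way at every stage, with no overlap between successive stages, was seen in 307 rises (16.1%) and 358 falls (20.1%). It was seen in 14.6% and 15.7% of those whose days did not overlap, called or not, and in 4.65% and 4.98% of all tested. In 531 rises (27.8%) both hES libraries lay above both ND3 libraries, so the ND6 rise followed a dip. In 540 falls (30.4%) both hES libraries lay below both ND3 libraries, so the ND6 fall followed a period of higher level. Among transcripts whose days did not overlap, called or not, these shares were 27.2% and 29.7%, close to those of the lists. Over all tested transcripts, whatever their ND6 level, they were 33.9% and 36.4%. Low or high ND3 values enter both sides of these shapes, so their counts are a description.

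The step from hES to ND1 shares no library with the step from ND3 to ND6. Of the rises at ND6, 438 (22.9%) had been called higher at ND1 than at hES and 267 (14.0%) lower. Of the falls, 295 (16.6%) had been called higher at ND1 and 429 (24.1%) lower. Over all tested transcripts these shares were 13.4% and 13.6%. Each list thus held more transcripts that had already moved its own way at ND1 than the background did. The falls also exceeded the background the opposite way (16.6% against 13.4%), while the rises were near it there (14.0% against 13.6%). The same fitted spread entered both tests, which ties the lists together in part.

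Footprints were compared next, to see whether the ribosome-bound fraction moved with the mRNA. It did for most transcripts. Among the 1798 mRNA rises with a footprint test, 1673 (93.0%) had a footprint change above 0, with a median of 0.96 beside a median mRNA change of 0.88 for the same transcripts (log2). Of the falls, 1584 of 1707 (92.8%) had a negative footprint change, with a median of -0.77 beside -0.76 in mRNA. Over all transcripts tested in both assays 49.3% had a positive footprint change. The size carried over as well. Taken by fitted mRNA change, called or not, the 611 transcripts between 1 and 2 (log2) had a median footprint change of 1.36, and the 200 above 2 had a median of 3.02. The 459 between -2 and -1 had a median of -1.23, and the 156 below -2 had a median of -2.18. The changes correlated across 16720 transcripts at r = 0.65, and at 0.75 over the 2964 with an mRNA level of at least 6 log2 CPM. These r values are across transcripts of the same libraries, and transcripts are not independent replicates.

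**Figure D1:**
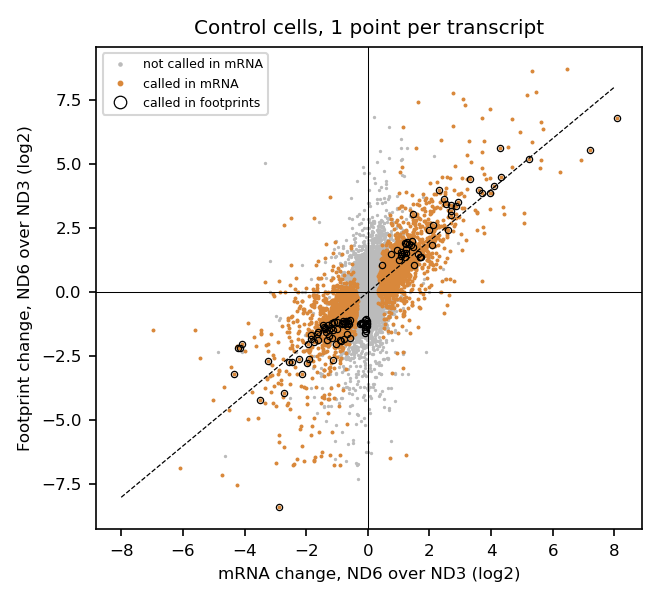
Change from ND3 to ND6 in control cells for each transcript, mRNA on the x axis and footprints on the y axis (both log2, ND6 over ND3), with the dashed line at equal change. The called mRNA changes lie along the line, and a tight cluster of footprint falls sits at an mRNA change near 0.

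Few footprint changes passed the test on their own. At ND6, 46 transcripts were higher and 72 lower in footprints, of 16740 with enough counts to test (edgeR, n = 2 per day, adjusted p under 0.05), which is 0.705% of those tested, 0.275% higher and 0.43% lower. The count and its balance depended on single libraries. It was 28, of which 18 were higher, without ND6 replicate 1, 25, of which 19 were higher, without ND6 replicate 2, and 51 without ND3 replicate 1. Without ND3 replicate 2 it was 356. With only these 4 footprint libraries fitted, 110 were higher and 34 lower. The 46 rises had a median footprint change of 1.99 and a median mRNA change of 1.72 (log2), and all 46 were also called higher in mRNA. Of the 72 falls, 54 were also called lower in mRNA.

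The other 18 footprint falls were not called in mRNA and form the cluster described in the plot of both assays. Their median footprint change was -1.24, beside a median mRNA change of -0.08 (log2). They were short and abundant. The length value had a median of 96.5 in them, against 390 over all transcripts, and their median mRNA level was 9.26 log2 CPM, against 4.15. CPM is not corrected for length, so it understates short transcripts beside long ones. None of the 18 passed the test of TE, with 0.285 as their lowest adjusted p (edgeR interaction test), while 17 had an unadjusted p under 0.05. The 18 were picked for a footprint call without an mRNA call. That choice favours a small mRNA change and low p-values for TE, so the count of 17 supports nothing. In shKBTBD8 cells the median footprint change of the 18 over the same days was -0.18.

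TE itself was tested as the change of footprints beyond that of mRNA. No transcript passed, 0 of 17680 (edgeR interaction test, adjusted p under 0.05, 0% called), and the lowest adjusted p was 0.0867. Unadjusted p-values under 0.05 were found for 182 higher and 429 lower transcripts. DESeq2 called 29, of which 3 were higher and 26 lower. The 429 had a median length value of 208 and the 182 one of 513.5. In the 429, 48.7% had a length value of at most 200, against 23.9% of all transcripts.

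Direction and length went together in both assays. The length value is a number that the authors gave every row, without a unit. Among the 709 tested transcripts with a value over 1600, 187 (26.4%) rose in mRNA and 35 (4.94%) fell. Among the 1108 with a value of at most 100, 47 (4.24%) rose and 150 (13.5%) fell. The median mRNA change was 0.28 in the longest class and -0.14 in the shortest (log2). For the 4 possible pairs of an ND6 and an ND3 library, that median lay between 0.15 and 0.43 in the longest class and between -0.22 and -0.06 in the shortest. The rises as a whole had a median length value of 533 and the falls one of 341. From hES to ND1 the median mRNA change was 0.36 in the longest class and -0.10 in the shortest. The trend in mRNA was thus not particular to the step from ND3 to ND6. Longer transcripts also had more counts, with a median of 5.73 log2 CPM in the longest class and 2.88 in the shortest, and the part of depth and of RNA integrity in this pattern was not tested.

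**Figure D2:**
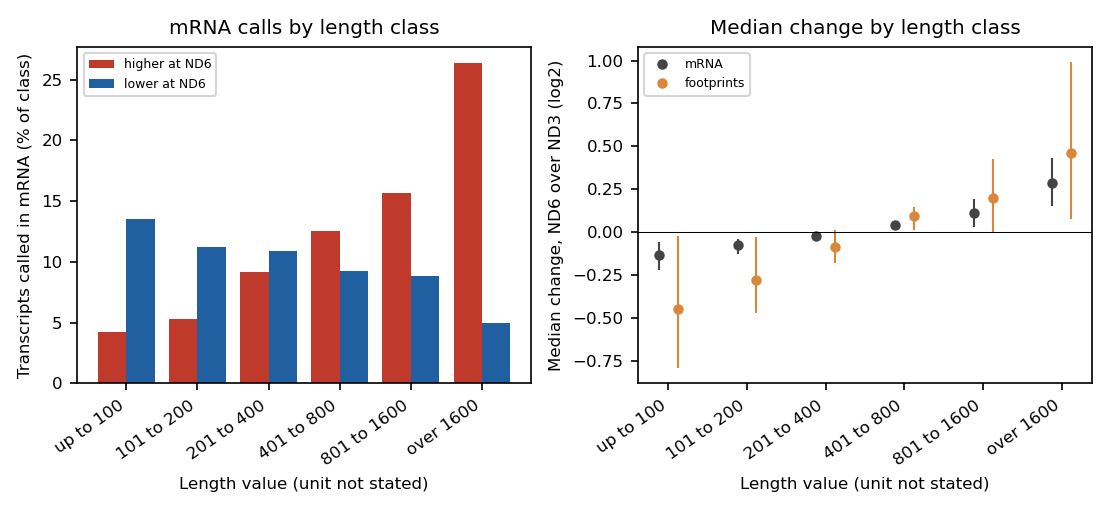
Left, share of transcripts in each length class called higher or lower in mRNA at ND6 than at ND3 in control cells (bars, percent of the class). Right, median log2 change per class in mRNA and footprints (points), with lines from the lowest to the highest of the 4 pairs of an ND6 and an ND3 library; the medians run from below 0 in the shortest class to above 0 in the longest in both assays.

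In footprints the same slope was steeper. The median footprint change was 0.46 in the longest class and -0.45 in the shortest (log2). Over the 4 library pairs it ranged from 0.07 to 0.99 in the longest class and from -0.79 to -0.02 in the shortest. The median TE change was accordingly 0.15 in the longest class and -0.28 in the shortest. For length values up to 200 together it turned to 0.08 without ND3 footprint replicate 1, against -0.22 with it. Without ND3 footprint replicate 2 it was -0.42. For length values over 800 it was -0.08 without ND3 footprint replicate 1, against 0.08 with it, and 0.33 without ND3 footprint replicate 2. It also turned to -0.04 without ND3 mRNA replicate 2. The relation of TE to length thus turned round without ND3 footprint replicate 1 and was stronger without ND3 footprint replicate 2. From hES to ND1 the median TE change was -0.31 in the longest class and 0.08 in the shortest. From ND1 to ND3 it was 0.08 in the longest class and 0.18 in the shortest.

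In shKBTBD8 cells the median mRNA change over the same days was 0.16 in the longest class and -0.05 in the shortest, and the median footprint change was 0.21 and -0.03. These libraries share none with the control comparison. The control medians were further from 0 in these classes, and the difference was not tested.

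Abundance marked a further group. Among the 123 transcripts with an mRNA level over 10 log2 CPM, 2 rose (1.63%) and 2 fell (1.63%) in mRNA, against 10.8% and 10.1% of all tested. In the same class 110 (89.4%) had a negative TE change, with a median of -0.70 (log2). The earlier steps gave this class median TE changes of -0.55 from hES to ND1 and -0.60 from ND1 to ND3, so the shift was not particular to ND6. In the class from 8 to 10 log2 CPM, 320 of 416 (76.9%) had a negative TE change, with a median of -0.22. In the class from 4 to 6 log2 CPM 54.7% were negative, with a median of -0.04.

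Short and abundant transcripts had fewer footprints per mRNA in both ND6 libraries. This class, drawn after the values above were seen, holds 178 transcripts with a length value of at most 200 and an mRNA level of at least 8 log2 CPM. Its median log2 ratio of footprint CPM to the mean mRNA CPM of the day was -2.09 and -2.25 in the ND6 libraries, against -1.09 and -1.48 in the ND3 libraries. The ND6 libraries lay below both ND3 libraries. At the earlier stages it was -0.80 and -0.73 at ND1 and 0.02 and -0.53 at hES. The ratio was thus lower at each later stage, with no overlap between stages. Both ratios of a stage share its mean mRNA level, so the spread between mRNA replicates does not enter them. In the second set of libraries of the series, its 1 control library at ND3 had a ratio of -1.09. In mRNA 0 of the 178 rose and 13 fell, where 10.8% and 10.1% of all tested transcripts did, and the median mRNA change was -0.04, beside a median footprint change of -0.79 (log2). Of the 178, 172 had a negative TE change, and 85 were lower at an unadjusted p under 0.05 (edgeR interaction test). Of all 16720 tested in both assays, 9135 and 389 were. The class was drawn with TE values of these libraries known, so its counts are a description and support nothing. The median TE change of the class was -0.72, -0.39 without ND3 footprint replicate 1 and -1.02 without ND3 footprint replicate 2. It stayed below 0 under every setting tried.

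Abundant transcripts with a longer value showed a smaller shift. The 361 with a length value over 200 had median ratios of -0.19 and -0.07 in the ND6 libraries, against -0.33 and 0.22 in the ND3 libraries, which overlap. Their median TE change was -0.17, with 258 of the 361 negative, against 9135 of all 16720 tested in both assays. Their median footprint change was -0.30, beside -0.10 in mRNA (log2). In shKBTBD8 cells the short and abundant class had ratios of -1.83 and -1.96 at ND6, against -1.67 and -1.74 at ND3. There the ND3 libraries were already below both control ND3 libraries. Whether the step differs between the hairpins was not tested for this class.

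Identifiers with the clearest changes were taken by a rule from 45 rises and 50 falls that were called in both assays, had a mean mRNA count of at least 100 and did not overlap between the days. The largest mRNA rise belonged to uc004ajd.3, with a length value of 482. Its mRNA stood at 97.5 and 69.5 CPM at ND6, against 0.249 and 0.344 CPM at ND3, which is 8.09 ± 0.62 on the log2 scale (SE; edgeR adjusted p = 1.33e-06). Its footprints stood at 170.8 and 235.1 CPM at ND6, against 0.945 and 2.52 CPM at ND3 (6.82 ± 0.79; edgeR adjusted p = 3.45e-05). It was low at every earlier stage, with 2.06 and 0.970 CPM in mRNA at ND1 and 2.13 and 1.78 CPM at hES. ND3 was the lowest stage in mRNA, with a change from ND1 of -2.27 ± 0.79 (edgeR adjusted p = 0.0362). The ND3 levels rest on few counts, 5 and 9 in mRNA and 4 and 13 in footprints, so the size of the rise is uncertain. In shKBTBD8 cells its mRNA was 16.01 and 3.93 CPM at ND6, against 0.360 and 0.434 CPM at ND3, a rise of 4.68. The smaller rise under shKBTBD8 did not pass the test of the difference (3.41 ± 1.13; edgeR adjusted p = 0.234), though it did by DESeq2 (adjusted p = 0.0290) and without shKBTBD8 ND6 replicate 1 (4.79; edgeR adjusted p = 0.00601). In the second set the shKBTBD8 library at ND3 held 11.5 CPM in mRNA and 24.96 CPM in footprints, and the control library at ND3 held 0.289 CPM in mRNA and no footprint. That shKBTBD8 mRNA value lies between the shKBTBD8 ND6 libraries of the first set. With the second set added, the difference was 6.55 (edgeR adjusted p = 0.0559).

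The most abundant of those rises was uc002aty.2, with a length value of 512. Its course was a dip and a return. In mRNA it stood at 861.3 and 759.8 CPM at ND6, against 217.7 and 355.1 CPM at ND3 (log2 change 1.51 ± 0.19, SE; edgeR adjusted p = 9.15e-05). At ND1 it had been at 520.0 and 457.7 CPM and at hES at 794.4 and 698.5 CPM. The ND6 libraries thus overlapped the hES libraries, and the second set differed, with 237.7 CPM in its ND3 control library and 440.1 and 316.1 CPM in its hES control libraries. Its footprints were at 1025 and 926.5 CPM at ND6, against 383.8 and 549.1 CPM at ND3 (1.07 ± 0.24; edgeR adjusted p = 0.0386). That footprint call was lost when ND6 replicate 1, ND6 replicate 2 or ND3 replicate 1 was left out (0.99, 1.15 and 0.86) and when only the 4 footprint libraries were fitted (1.07). In shKBTBD8 cells its mRNA rose by 1.59 over the same days.

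The largest fall of the rule was that of uc001kil.2, with a length value of 478, which had a transient course. In mRNA it stood at 2.41 and 3.17 CPM at ND6, against 54.1 and 59.7 CPM at ND3 (log2 change -4.34 ± 0.35, SE; edgeR adjusted p = 2.03e-06). At ND1 it had 53.0 and 91.3 CPM and at hES only 1.56 and 0.910 CPM. Its footprints followed, with 4.56 and 6.94 CPM at ND6, against 59.3 and 45.4 CPM at ND3 (-3.19 ± 0.57; edgeR adjusted p = 0.00612). The footprint call was lost without either ND6 replicate (-2.91 and -3.50). The shKBTBD8 libraries of the first set stood higher in mRNA on both days. They held 33.5 and 17.2 CPM at ND6, against 252.8 and 240.9 CPM at ND3. The fall there was -3.26. The control library of the second set at ND3 held 17.2 CPM in mRNA, under both ND3 libraries of the first set. Its footprint library held 4.50 CPM, which is below both ND6 footprint libraries and so does not show the fall. The shKBTBD8 library of the second set at ND3 held 20.5 CPM in mRNA and 19.1 CPM in footprints. Both values lie under the control ND3 libraries of the first set, so the higher ND3 level under shKBTBD8 was not seen there against those libraries.

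The most abundant fall was that of uc001bmj.3, with a length value of 190. In mRNA it stood at 418.2 and 440.9 CPM at ND6, against 1043 and 905.2 CPM at ND3 (log2 change -1.18 ± 0.13, SE; edgeR adjusted p = 3.33e-05). At ND1 it had 740.4 and 818.8 CPM and at hES 561.7 and 502.2 CPM, so its level was highest at ND3 and lowest at ND6. Its footprints were at 249.2 and 194.2 CPM at ND6, against 1021 and 493.4 CPM at ND3 (-1.78 ± 0.33; edgeR adjusted p = 0.00744). The ND3 footprint libraries differ by more than 2-fold, and the footprint call was lost without ND3 replicate 1 (-1.12), ND6 replicate 1 (-1.96) or ND6 replicate 2 (-1.59). In shKBTBD8 cells its mRNA change over the same days was -0.88, and its footprint change was -0.51 and not called (edgeR adjusted p = 0.633). The difference between the footprint changes did not pass (-1.27). In the second set the control ND3 level was 888.7 CPM in mRNA and 732.4 CPM in footprints. Its TE change was -0.65, and 0.03 without ND3 footprint replicate 1. No change of TE passed for any of the 4 transcripts.

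**Figure D3:**
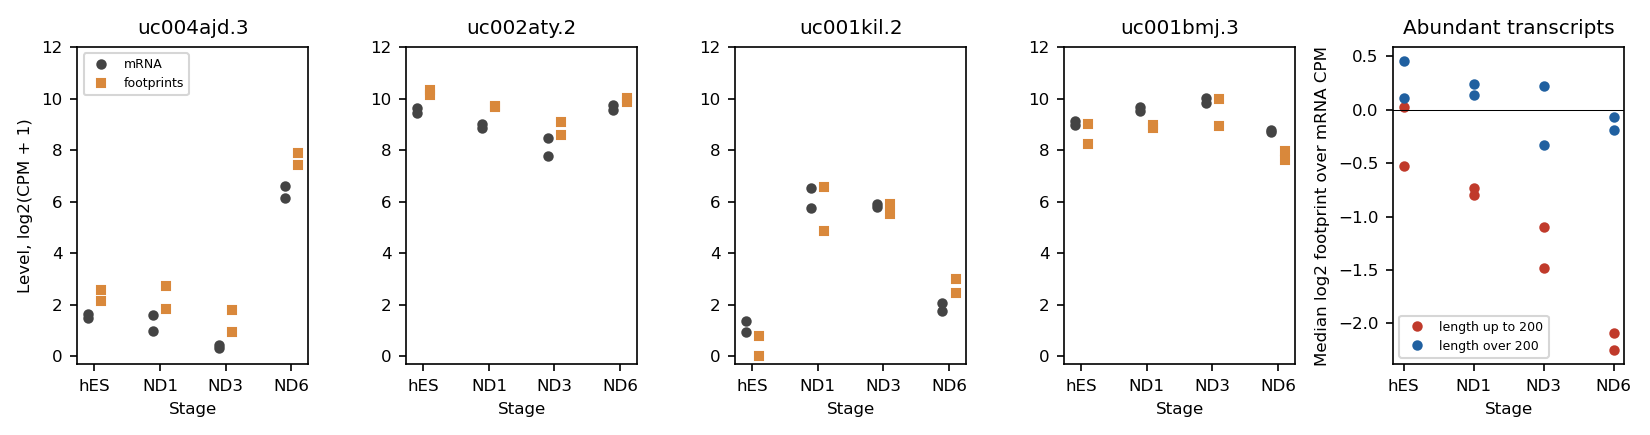
The 4 named transcripts in control cells at each stage, in mRNA and footprints, on a log2(CPM + 1) axis, 1 point per library. At the right is the median ratio (log2) of footprint CPM over the mean mRNA CPM of the stage. It is shown for abundant transcripts of at most and over 200 in length value. The ratio of the short class is lowest in both ND6 libraries, at -2.09 and -2.25.

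The last question was whether the step from ND3 to ND6 differed between shControl and shKBTBD8 cells. Most fitted changes had the same sign under both hairpins, while fewer were called under both. Of the 1909 control rises, 1764 (92.4%) had a positive mRNA change in shKBTBD8 cells, against 49.8% of all tested transcripts, and 869 (45.5%) were also called higher there, against 8.6% of all tested transcripts. Of the 1779 control falls, 1694 (95.2%) had a negative change, against 50.1% of all, and 893 (50.2%) were called lower, against 8.32% of all. The 1762 transcripts called in the same direction make up 47.8% of the control calls and 59.0% of the 2987 shKBTBD8 calls (16.9% of all tested). Among the 1790 called under both hairpins the median size of change was 0.99 in control and 0.99 in shKBTBD8 cells (log2). Over the control lists the median change was 0.93 in control and 0.58 in shKBTBD8 cells for the rises and -0.78 and -0.55 for the falls. Those lists were chosen on the control libraries, which favours larger values there.

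**Figure D4:**
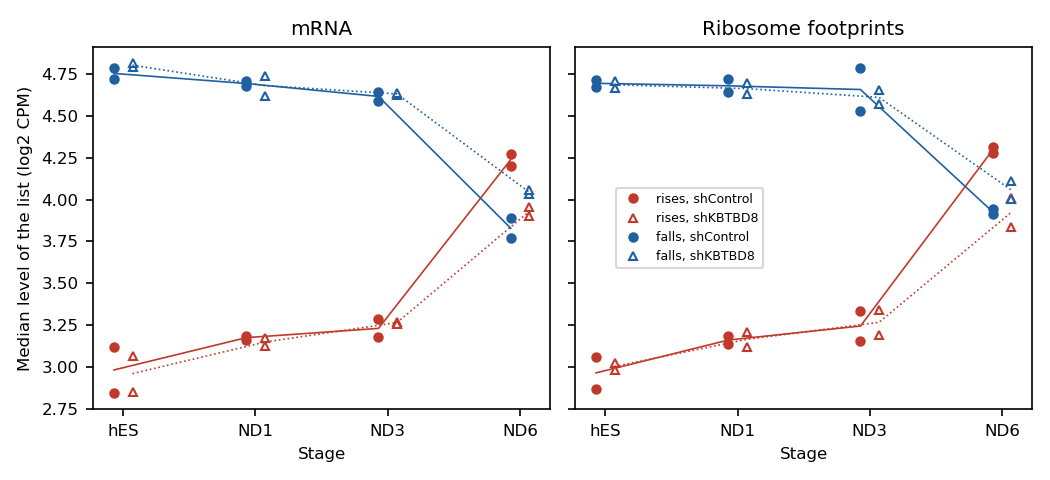
Median level (log2 CPM) of the control mRNA rises and falls at each stage, 1 point per library, for shControl (filled) and shKBTBD8 (open), in mRNA and in footprints, with lines through the mean of the replicates. The lists were chosen from the control mRNA at ND3 and ND6. In control mRNA the rises had medians of 4.27 and 4.20 at ND6, against 3.18 and 3.28 at ND3, and the falls 3.77 and 3.89, against 4.64 and 4.59.

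The difference of the change itself passed for 196 transcripts, of 17659 tested (edgeR contrast between the changes, adjusted p under 0.05), which is 1.11%. In 106 (0.6%) the change in control minus that in shKBTBD8 cells was positive and in 90 (0.51%) it was negative, with a median size of 1.90 (log2). Of the 196, 61 were called in control cells alone, 45 of them as rises with a positive difference and 16 as falls with a negative one. Another 63 were called in shKBTBD8 cells alone, 31 as rises and 32 as falls. In 44 both changes were called in the same direction, and in 28 in opposite directions, 16 rising and 12 falling in control cells. Footprint differences had the same sign in 170 of the 191 that were tested there. The share of equal signs over all tested transcripts is not given here, so this count is a description. No footprint difference passed on its own, 0 of 16740 (edgeR, 0% called). Unadjusted p-values were under 0.05 for 688, and DESeq2 called 20. Without shKBTBD8 ND3 replicate 1 there were 392 footprint differences, 18 positive and 374 negative, and without shKBTBD8 ND6 replicate 1 there were 53, of which 48 were positive and 5 negative. The mRNA count was 48 without control ND6 replicate 1, 103 without control ND6 replicate 2, 71 without control ND3 replicate 1 and 110 without control ND3 replicate 2. Without shKBTBD8 ND3 replicate 1 or 2 it was 55 or 109. With the libraries of the second set added it was 55.

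**Figure D5:**
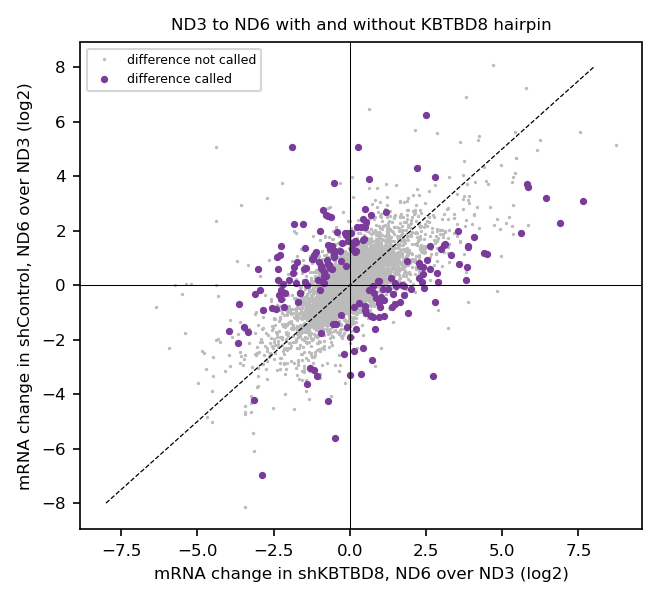
mRNA change from ND3 to ND6 of each transcript in shControl cells (y axis) and shKBTBD8 cells (x axis), both log2, with the dashed line at equal change. The 196 transcripts whose change differed lie on both sides of that line, 104 of them with opposite signs under the hairpins.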

How the data were processed

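Footprint and mRNA libraries came from H1 cells. The authors deposited whole-number counts per transcript row; the deposited length value of each row, a number of other kind, has no stated unit. The tools named in the submitters' processing notes, with no role, are TopHat2 2.0.7, Bowtie2 2.0.6 and CASAVA 1.8, with build hg19. How reads were counted, with which strand setting, is not given in the sources used here. Deposited rows averaging 10 counts or more were joined, up to 20 rows apart, where a chi-square of their counts across the 46 libraries was under 2 per degree of freedom, a grouping taken over from an earlier analysis of these data; the row with the highest total stands for its group. Counts were tested with edgeR 4.0.16 (TMM, filterByExpr, quasi-likelihood F-test, threshold 0.05) in R 4.3.3. The 16 libraries per assay of the first set (32 for TE) shared 1 model of groups. Standard errors come from the F statistic. DESeq2 1.42.0 was an alternative. Scripts were tested on simulated data. CPM used TMM over both sets, and log2 CPM a prior count of 2. Members, lists and rules were chosen with earlier results of these data known. Named transcripts were, per direction, the largest change and the highest mean mRNA CPM among the candidates. The rule's TE part had no called transcript, and its gene-name part could not be applied.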

Additional observations from a re-analysis of the deposited data

Results flagged for a closer look

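The change from ND3 to ND6 differed between shControl and shKBTBD8 cells in mRNA for 196 of 17659 transcripts, by a test of the difference itself (edgeR, adjusted p under 0.05). The median size of the difference was 1.90 on the log2 scale. The count ranged from 48 to 176 when single libraries were left out.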

How the results depend on the processing

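Directions held for every named transcript's mRNA and footprint change and for the mRNA and footprint shares, under the settings run for each. Counts did not hold as well. With single libraries left out, the mRNA count ranged from 1517 to 2966, the footprint count from 25 to 356, the TE count from 0 to 6, the mRNA difference between hairpins from 48 to 176 and its footprint difference from 0 to 392. DESeq2 gave 472 footprint calls, 29 in TE, and 375 mRNA and 20 footprint differences. Size factors of the RLE method gave 1 TE call. A mean count of at least 100 gave 228 footprint calls, 121 mRNA differences and 1 footprint difference. With every deposited row tested on its own, 10457 mRNA, 354 footprint and 3 TE rows passed, and 697 mRNA differences. Several rows there may hold the same reads, which were not compared. With libraries of the second set there were 231 footprint calls and 55 mRNA differences. The cause of these shifts in the counts was not tested.

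The labels give both days replicate numbers 1 and 2 but do not say what a number shares. Replicate differences at ND6 and ND3 correlated at 0.22 in mRNA and 0.11 in footprints across transcripts. With the replicate block there were 5294 mRNA, 279 footprint and 3 TE calls, 415 mRNA and 4 footprint differences. With the replicate block and only the groups compared, a setting chosen after seeing the data, there were 6628 mRNA and 861 footprint calls and 685 mRNA differences.

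What size of TE change these libraries could show is not reported here. The simulated counts on which the scripts were tested held known TE changes, and how many were recovered is not given. At a mean count of at least 100, TE gave 0 calls of 12730 tested, with 419 at an unadjusted p under 0.05 (edgeR), beside 29 calls by DESeq2 with the usual filter. The balance of footprint calls was 46 higher to 72 lower, but 110 to 34 with only the groups compared, 119 to 109 at a mean count of at least 100 and 494 to 367 with the block added to the groups compared.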

Other observations

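Transcripts that neighbour each other in the files moved together more often than distant ones. Of 1248 adjacent pairs in which both were called in mRNA, 79.6% had the same direction. The share was 62.7% for transcripts 2 apart, 52.1% at 5 apart and 50.7% at 20 apart. Neighbouring transcripts can still share part of their reads after the grouping of rows, and the part of shared reads in this was not tested.

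The control ND3 mRNA library of the second set entered only the alternative fit with both sets, not the lists of rises and falls. It lay nearer to the mean of the ND3 libraries than to that of the ND6 libraries for 88.1% of the rises and 86.0% of the falls, against 69.3% of all tested transcripts. Its median distance over the rises was -0.97 from ND6 and -0.02 from ND3, and over the falls 0.84 from ND6 and 0.06 from ND3 (log2). It is a single library, and whether it came from separate cells is not stated.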
